A study of Homo sapiens with 6 samples.

Results

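The genes described here are 49 genes of the lysosome, the vacuolar proton pump (V-ATPase) and autophagy, chosen by symbol from a gene count table of 58735 genes. They comprise 16 genes of lysosomal hydrolases and their activators, 5 of lysosomal membrane proteins, 13 of the proton pump, 2 of TFE transcription factors, 12 of the autophagy machinery and the late endosomal GTPase gene RAB7A. The cells were ARPE-19, a long-established line of human retinal pigment epithelium (RPE). In 3 libraries they overexpressed CD51-ICD (the OE CD51 ICD group), and 3 control libraries with the genotype label WT form the NC group. ITGAV encodes CD51, or integrin alpha V, and the series title names signalling between microglia and RPE in dry macular degeneration. The labels used here give neither the vector or promoter of the construct, nor the vector content of the control cells, nor whether the cells were 1 clone, nor whether the replicates were grown as separate cultures. The p-values therefore cover no more than the variation among these 6 libraries, part or all of which may be technical.

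Lysosomes are acidic compartments in which hydrolases break down material delivered by endocytosis, phagocytosis and autophagy. The V-ATPase acidifies them: its V0 sector conducts protons through the membrane and its cytosolic V1 sector hydrolyses ATP, and TFEB, TFE3 and MITF are related transcription factors that bind E-box elements near many lysosomal and autophagy genes. RPE cells rely on this system to digest photoreceptor outer segments.

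Of the 49 genes, all of which passed the filter on low counts, 15 rose and 11 fell in OE CD51 ICD against NC, and 23 did not pass the test. The higher members were 30.6% and the lower 22.4% of the list, while over all 13787 genes tested the shares called were 25.2% higher and 25.8% lower. The count of called members is therefore close to the background of this comparison, in which 51% of genes passed in either direction. With library size as the only scaling (without TMM) the split was 12 higher and 14 lower, and over all genes it was 2896 higher and 4051 lower. Changes were small: the median absolute log2 fold change was 0.25 in the 49 genes and 0.38 over all tested genes. The 49 genes and all tested genes were not matched for abundance, here or in the 2-fold shares that follow. The tested genes include some less abundant than any of the 49, such as CASTOR1 at a mean of 0.485 CPM in NC. One member, WIPI1, was higher by at least 2-fold and 0 were lower by that much, against 6.89% and 5.83% of all tested genes. The lowest log2 fold change of the 49 was -0.66, so no p threshold could change the count of 0. It was also 0 under DESeq2 and under limma-voom. The median log2 fold change was 0.08 in the 49 genes and 0.01 over all tested genes. The CPM of the groups did not overlap in 29 of the 49 genes, against 57.5% of all tested genes. A call here means an adjusted p below 0.05 in edgeR's quasi-likelihood test, fitted on all genes, and CPM is the count over the library size scaled by edgeR.

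**Figure D1:**
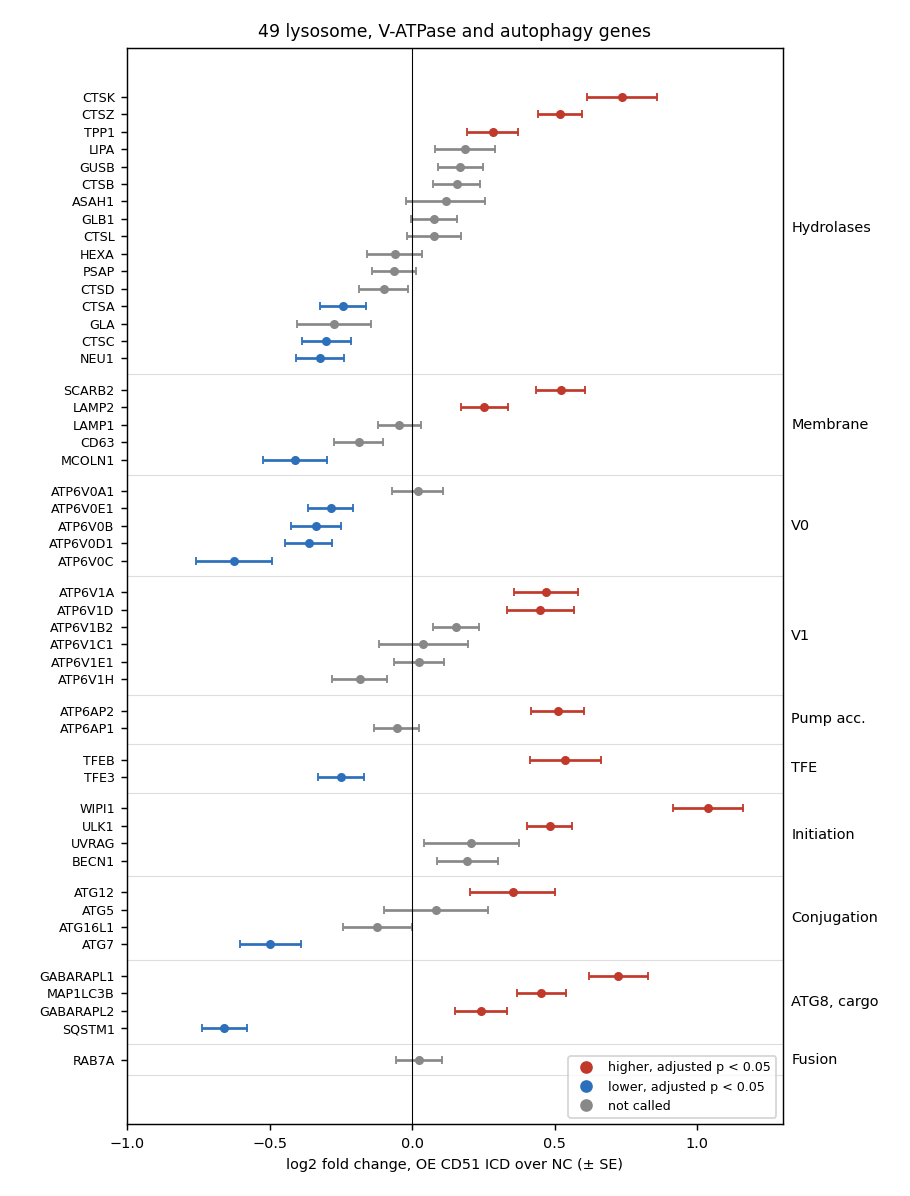
Log2 fold change of OE CD51 ICD over NC for each of the 49 genes, with its standard error, grouped by role and coloured by the call of edgeR's quasi-likelihood test. WIPI1 stands highest at 1.04 and SQSTM1 lowest at -0.66, and 4 of the 5 V0 genes lie below 0.

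ITGAV itself (ENSG00000138448) had 436, 536 and 371 CPM in the OE CD51 ICD libraries, against 113, 92.7 and 89.3 CPM in the NC libraries (log2 fold change 2.18 ± 0.11 SE, adjusted p = 1.47e-16), so the labels match the counts, although reads of the construct and of the endogenous transcript fall on the same gene. Total counts ran from 14577912 to 15640428 in OE CD51 ICD and from 13616694 to 16934668 in NC (exact two-sided permutation p = 0.8). Genes detected ran from 20230 to 20610 in OE CD51 ICD and from 19540 to 20178 in NC, groups that did not overlap (exact permutation p = 0.1, the smallest that 3 libraries against 3 allow). Of 12 RPE markers, 7 could be tested and RPE65 and TTR had no count in any library. RLBP1 and PMEL were called higher (log2 fold change 0.81 and 0.80), RDH5 and MITF were called lower (-1.33 and -0.56), and OTX2, LRAT and SERPINF1 did not pass. The epithelial keratin KRT8 was at 3461 ± 237 CPM in OE CD51 ICD and 3718 ± 189 CPM in NC, and neither it nor KRT18 passed. KRT19 was called lower (-1.21) at a mean of 0.596 CPM in OE CD51 ICD and 1.38 CPM in NC, and EPCAM and CDH1 were too low to test. Of 10 myeloid markers, LYZ and P2RY12 had no count in any library and the rest apart from CSF1R stayed at or below 0.820 CPM, and the list's sum of 31.6 to 37.1 CPM in OE CD51 ICD and 3.38 to 4.67 CPM in NC was nearly all CSF1R. The summed level of 8 fibroblast markers ran from 1604 to 2035 CPM in OE CD51 ICD and from 239 to 282 CPM in NC. It was led by COL1A1 and PDGFRB, the 2 that could be tested. COL1A2, COL3A1, LUM, THY1 and PDGFRA stayed at or below 0.527 CPM in each library, and DCN had 0 counts. The part of these marker differences in the results below was not tested, and in bulk RNA fewer cells of a type and less RNA per cell cannot be told apart.

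The share of each gene's bases that are G or C moved with the change. Over all tested genes the median log2 fold change was 0.25 in the lowest of 5 equal groups by GC content and -0.27 in the highest. Across the 49 genes the log2 fold change and GC content had a Pearson r of -0.34 and a Spearman rho of -0.37. These points are genes of the same 6 libraries, not independent replicates, and the same correlations over all tested genes were -0.23 and -0.32. Removing each library's GC trend left 23 called members, 15 higher and 8 lower, of which 18 were also among the 26 called without the removal. For called genes named below, the GC-corrected log2 fold change is given where it ends the call, turns the direction or differs by more than 1.5 times, and for some others. Of the 23 members not called, 11 changed sign with the GC trend removed, and 1 of these, CTSD, was then called. The chromosome medians of all tested genes also differed, at 0.21 on chromosome 11 (CTSC, CTSD, TPP1 and UVRAG), -0.18 on chromosome 16 (ATP6V0C, ATP6V0D1, MAP1LC3B and GABARAPL2) and -0.18 on chromosome 19 (MCOLN1). Their part in these genes' changes was not tested.

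**Figure D2:**
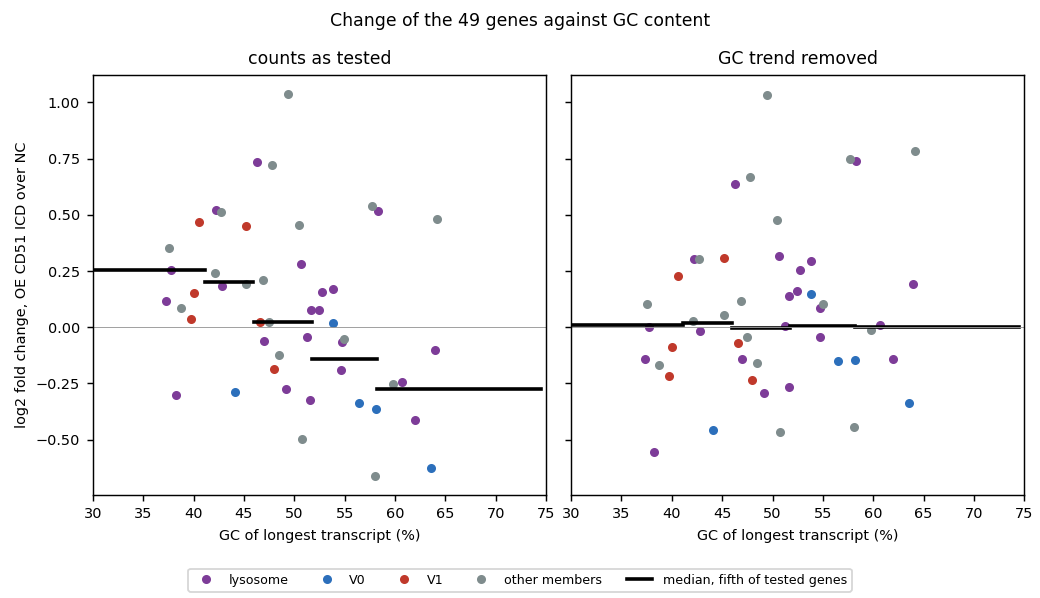
Log2 fold change of OE CD51 ICD over NC against the GC content of each gene's longest transcript (in percent) for the 49 genes, with counts as tested on the left and each library's GC trend removed on the right. Black lines are medians of all tested genes in 5 equal groups by GC content, which step from 0.25 to -0.27 on the left and lie near 0 on the right.

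Because TFE factors bind E-boxes of the CLEAR type, nested palindromes were searched on both strands of the RefSeq promoter windows (GRCh38.p14, 250 bases before to 50 bases after a gene's start) that matched 37 of the 49 genes. The core CACGTG was in the windows of 8 of the 37 genes, or 21.6%, against 8.78% of 27305 genes with such windows. The extended form TCACGTGA was in 4 of them (ATP6V0D1, CTSA, LAMP1 and MCOLN1), or 10.8%, against 1.18% of all genes, and the same letters with G before and C after were in MCOLN1 alone, against 0.421% of all genes. The 250 bases before the start are shown for the 3 called genes that hold the extended form, 5′ to 3′ on the gene's strand, with every match in capitals. The 3 genes shown, taken from the called members, were lower in OE CD51 ICD, though the MCOLN1, ATP6V0D1 and CTSA calls were lost with the GC trend removed. LAMP1, which also holds the extended form, did not pass (log2 fold change -0.05 ± 0.08 SE). Of the genes with the core alone, ATP6V0B and NEU1 were called lower, while CTSD and CD63 did not pass. A match is a string of letters and not evidence that a factor bound there. The windows lie at chr19:7522374-7522623 on the plus strand for MCOLN1, at chr16:67481158-67481407 on the minus strand for ATP6V0D1 and at chr20:45891085-45891334 on the plus strand for CTSA.
MCOLN1: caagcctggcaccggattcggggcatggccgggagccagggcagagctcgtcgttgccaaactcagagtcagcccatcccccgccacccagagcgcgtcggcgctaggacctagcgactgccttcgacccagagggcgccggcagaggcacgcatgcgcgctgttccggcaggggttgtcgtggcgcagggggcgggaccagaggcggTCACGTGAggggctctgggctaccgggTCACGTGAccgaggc
ATP6V0D1: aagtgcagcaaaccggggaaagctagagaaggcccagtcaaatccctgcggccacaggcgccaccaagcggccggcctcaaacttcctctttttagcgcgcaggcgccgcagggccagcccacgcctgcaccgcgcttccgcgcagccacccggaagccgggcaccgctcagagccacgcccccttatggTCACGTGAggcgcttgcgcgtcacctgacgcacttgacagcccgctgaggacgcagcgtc
CTSA: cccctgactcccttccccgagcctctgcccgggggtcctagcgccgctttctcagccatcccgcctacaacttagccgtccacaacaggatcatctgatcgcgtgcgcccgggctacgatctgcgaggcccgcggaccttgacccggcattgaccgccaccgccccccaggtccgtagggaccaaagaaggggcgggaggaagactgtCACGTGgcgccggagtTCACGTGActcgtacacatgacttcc
In MCOLN1 the matches to TCACGTGA ended 8 and 35 bases before the start. In ATP6V0D1 the match ended 53 bases before the start, and in CTSA the TCACGTGA match ended 19 bases before it and a bare CACGTG 37 bases before it.

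Among the TFE factors, TFEB was higher and TFE3 was lower. TFEB (ENSG00000112561, chromosome 6, 41683978 to 41736259, GRCh38), a factor held in the cytoplasm when nutrients are plentiful, had 24.4, 21.8 and 27.04 CPM in the OE CD51 ICD libraries, against 16.7, 17.1 and 16.7 CPM in the NC libraries (log2 fold change 0.54 ± 0.13 SE, adjusted p = 6.53e-04). Each OE CD51 ICD library was above each NC library, and the GC-corrected change was 0.75. TFE3 (ENSG00000068323, chromosome X, 49028726 to 49043486), its close relative, had 223, 204 and 239 CPM in the OE CD51 ICD libraries, against 277, 248 and 268 CPM in the NC libraries (log2 fold change -0.25 ± 0.08 SE, adjusted p = 0.0109). The groups did not overlap, but the TFE3 call was lost with the GC trend removed (-0.01, adjusted p = 0.882), in limma on log2(FPKM + 1) and on leaving out NC replicate 1 or OE CD51 ICD replicate 1 or 2 (adjusted p = 9.43e-04 to 0.882 over its alternatives). Per gene length, TFE3 was at 51.3 ± 4.65 FPKM in OE CD51 ICD and 61.3 ± 3.46 FPKM in NC, while TFEB was at 4.27 ± 0.510 FPKM in OE CD51 ICD and 2.95 ± 0.0384 FPKM in NC (deposited FPKM). MITF, the third factor of the family and a member of the mTORC1 and MiT list, had 16.7, 22.8 and 14.5 CPM in the OE CD51 ICD libraries, against 28.99, 24.2 and 26.5 CPM in the NC libraries (log2 fold change -0.56 ± 0.14 SE, adjusted p = 0.00119), with a GC-corrected change of -0.80 and the call lost in limma on log2(FPKM + 1) (adjusted p = 0.0642). TFEC, the fourth, had 1 count over OE CD51 ICD and 2 over NC and was not tested.

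Autophagy genes held the largest rise and the largest fall of the 49. Of 12 genes, 6 rose, 2 fell and 4 did not pass, against 25.2% called higher and 25.8% lower over all tested genes. The median log2 fold change of the 12 was 0.22. With the GC trend removed 4 were higher and 2 lower, and the median was 0.08. The rises were in WIPI1 and ULK1 of initiation, in 3 ATG8 family genes and in ATG12, and the falls in the cargo receptor gene SQSTM1 and the conjugation enzyme gene ATG7.

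WIPI1 (ENSG00000070540, chromosome 17, 68420948 to 68457513) encodes a protein that binds phosphatidylinositol 3-phosphate on the forming autophagosome. It had 30.7, 30.1 and 28.5 CPM in the OE CD51 ICD libraries, against 13.02, 15.9 and 14.7 CPM in the NC libraries (log2 fold change 1.04 ± 0.12 SE, adjusted p = 3.10e-08), a 2.05-fold rise with no overlap between the groups. Its locus overlaps ARSG on the opposite strand, and its estimate fell under 2-fold without TMM, in limma on log2(FPKM + 1) and without NC replicate 1, while it stayed called under each alternative run. ULK1 (ENSG00000177169, chromosome 12, 131894651 to 131923167), the kinase that starts autophagy, had 173, 167 and 176 CPM in the OE CD51 ICD libraries, against 126, 116 and 127 CPM in the NC libraries (log2 fold change 0.48 ± 0.08 SE, adjusted p = 8.27e-06). Its libraries were tightly grouped and well apart, and the GC-corrected change was 0.78. BECN1, the regulatory subunit of the class III phosphatidylinositol 3-kinase complex, averaged 36.6 ± 2.83 CPM in OE CD51 ICD and 32.04 ± 2.72 CPM in NC, and its log2 fold change of 0.19 ± 0.11 SE did not pass (adjusted p = 0.138). UVRAG, which joins that complex, was at 0.21 ± 0.17 SE on the log2 scale and did not pass.

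All 3 ATG8 family genes of the list were higher. These genes encode ubiquitin-like proteins that are joined to lipid on the autophagosome membrane. GABARAPL1 (ENSG00000139112, chromosome 12, 10212458 to 10223130) had 63.6, 64.8 and 58.1 CPM in the OE CD51 ICD libraries, against 31.8, 39.1 and 42.2 CPM in the NC libraries (log2 fold change 0.72 ± 0.10 SE, adjusted p = 1.03e-06). MAP1LC3B, which encodes LC3B, had 109.6, 112 and 105 CPM in the OE CD51 ICD libraries, against 73.2, 84.95 and 80.5 CPM in the NC libraries (log2 fold change 0.45 ± 0.09 SE, adjusted p = 5.65e-05). GABARAPL2 had 56.2, 57.1 and 57.2 CPM in the OE CD51 ICD libraries, against 45.5, 49.1 and 49.7 CPM in the NC libraries (log2 fold change 0.24 ± 0.09 SE, adjusted p = 0.0299). In each of the 3 genes the lowest OE CD51 ICD library was above the highest NC library. The GABARAPL2 call was lost with the GC trend removed (0.03, adjusted p = 0.808), without TMM or a count filter, and on leaving out NC replicate 1 or 2 or OE CD51 ICD replicate 1 (adjusted p = 0.0106 to 0.808 over its alternatives). Of their relatives in the wider list, GABARAP was at -0.50 ± 0.22 SE and MAP1LC3A at -0.09 ± 0.14 SE on the log2 scale, and neither passed, though GABARAP was called lower with the GC trend removed (-0.50, adjusted p = 0.0495).

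SQSTM1 (ENSG00000161011, chromosome 5, 179806398 to 179838078) encodes p62, a receptor that links ubiquitinated cargo to ATG8 proteins and is itself degraded by autophagy. It had 854, 810.1 and 957 CPM in the OE CD51 ICD libraries, against 1399.5, 1334 and 1408 CPM in the NC libraries (log2 fold change -0.66 ± 0.08 SE, adjusted p = 4.33e-08). The highest OE CD51 ICD library was well below the lowest NC library, and it had the fourth highest mean FPKM of the 49 genes in NC. The gene stayed called under each alternative run, and its locus overlaps MRNIP and MGAT4B on the opposite strand. Other cargo receptor genes of the wider list were higher or did not pass: NBR1 had a log2 fold change of 0.52 ± 0.09 SE (adjusted p = 1.11e-05), OPTN of 0.42 ± 0.08 SE (adjusted p = 1.33e-04, GC-corrected 0.26) and TAX1BP1 of 0.30 ± 0.12 SE (adjusted p = 0.0417), while CALCOCO2 was at 0.19 ± 0.10 SE and did not pass. The TAX1BP1 call was lost with the GC trend removed (0.24, adjusted p = 0.114), and these 4 genes were named after their values were seen.

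**Figure D3:**
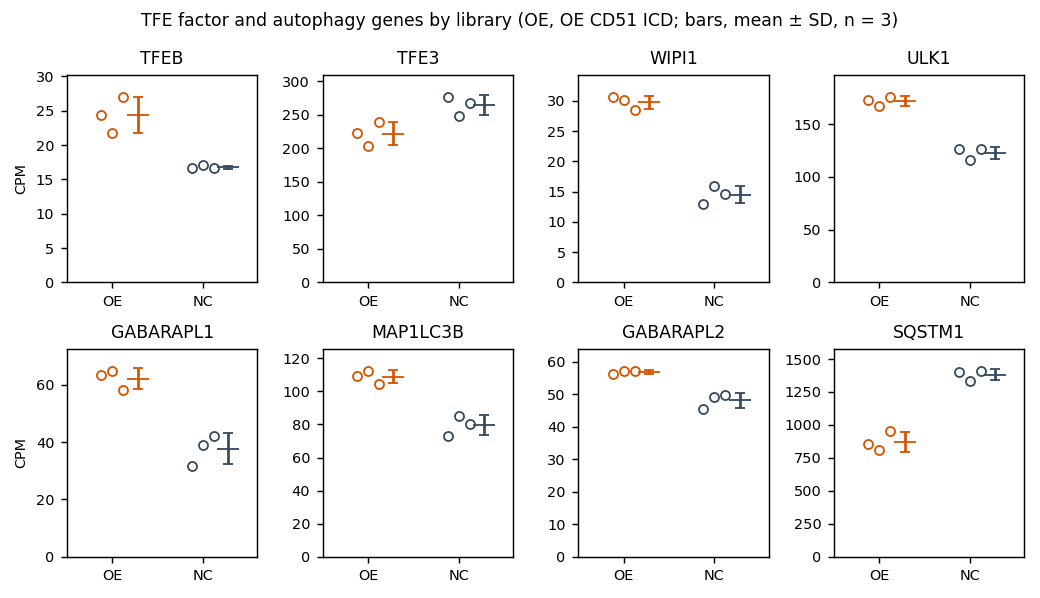
CPM of TFE factor and autophagy genes in each of the 3 OE CD51 ICD (OE) and 3 NC libraries, with the mean and SD of each group beside the points and axes that start at 0. TFEB, WIPI1, ULK1, GABARAPL1, MAP1LC3B and GABARAPL2 are higher in OE CD51 ICD, TFE3 and SQSTM1 are lower, and the groups do not overlap in any of the 8 genes.

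In the conjugation machinery, ATG7, the activating enzyme for both ATG8 and ATG12, was lower. It had 38.6, 34.7 and 48.00 CPM in the OE CD51 ICD libraries, against 56.9, 54.6 and 59.8 CPM in the NC libraries (log2 fold change -0.50 ± 0.11 SE, adjusted p = 2.57e-04), with no overlap, and its locus overlaps VGLL4 on the opposite strand. ATG12, the ubiquitin-like protein joined to ATG5, had 12.5, 15.1 and 13.5 CPM in the OE CD51 ICD libraries, against 10.7, 10.9 and 10.6 CPM in the NC libraries and was at the edge of the threshold (log2 fold change 0.35 ± 0.15 SE, adjusted p = 0.0488). Its groups did not overlap, yet the ATG12 call was lost under 13 of 18 alternatives, including DESeq2, the GC trend removed (0.10) and the omission of any single library (adjusted p = 0.0274 to 0.532). ATG5 averaged 9.68 ± 2.09 CPM in OE CD51 ICD and 9.12 ± 1.88 CPM in NC (0.08 ± 0.18 SE on the log2 scale), and ATG16L1, which brings the conjugate to the membrane, averaged 22.8 ± 0.877 CPM in OE CD51 ICD and 24.9 ± 3.13 CPM in NC (-0.12 ± 0.12 SE). Neither passed the test. RAB7A, the GTPase of late endosomes that acts in fusion with lysosomes, had 239, 242 and 238 CPM in the OE CD51 ICD libraries, against 211, 241 and 254 CPM in the NC libraries (log2 fold change 0.02 ± 0.08 SE, adjusted p = 0.824). Its OE CD51 ICD values lay within the NC range.

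Proton pump genes were called in both directions. Of the 5 genes of the membrane sector V0, 4 were lower and none was higher, with a median log2 fold change of -0.34. Of the 6 genes of the cytosolic sector V1, 2 were higher and none was lower, with a median of 0.10. The difference between the sectors was not tested, and over all tested genes 25.2% were called higher and 25.8% lower. The V0 genes had a median GC content of 56.5% and the V1 genes of 42.9%, against 48.6% over all tested genes. With the GC trend removed 2 V0 genes were lower and none was higher, while 2 V1 genes were higher and 1 was lower, and the medians were -0.15 for V0 and -0.08 for V1.

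ATP6V0C (ENSG00000185883, chromosome 16, 2513870 to 2520218), the proteolipid of the proton-carrying ring, had 15.01, 18.7 and 21.96 CPM in the OE CD51 ICD libraries, against 27.2, 26.3 and 32.3 CPM in the NC libraries (log2 fold change -0.63 ± 0.13 SE, adjusted p = 2.37e-04). Its fall was the largest among the 13 pump members without GC correction, and it stayed called with the GC trend removed (-0.34, adjusted p = 0.0260), and its locus overlaps the annotated coding genes AC093525.1 and AC093525.2 on the same strand. ATP6V0D1, which encodes the d subunit below the ring, had 145, 140.2 and 161 CPM in the OE CD51 ICD libraries, against 202, 192 and 181 CPM in the NC libraries (log2 fold change -0.36 ± 0.08 SE, adjusted p = 4.58e-04). ATP6V0B, a second proteolipid, had 94.6, 89.2 and 111 CPM in the OE CD51 ICD libraries, against 127, 126 and 119.6 CPM in the NC libraries (log2 fold change -0.34 ± 0.09 SE, adjusted p = 0.00194). In both genes the groups did not overlap, and both calls were lost with the GC trend removed (-0.15 and -0.15, adjusted p = 0.0586 and 0.0737). ATP6V0E1, a small membrane subunit, had 129, 129 and 127 CPM in the OE CD51 ICD libraries, against 151, 159 and 160.0 CPM in the NC libraries (log2 fold change -0.29 ± 0.08 SE, adjusted p = 0.00304). It is GC-poor among the V0 genes at 44.1%, and its GC-corrected change was -0.46 (adjusted p = 6.85e-06). ATP6V0A1, the a subunit that lines the proton path, had 84.6, 76.5 and 75.2 CPM in the OE CD51 ICD libraries, against 72.7, 75.1 and 85.7 CPM in the NC libraries (log2 fold change 0.02 ± 0.09 SE, adjusted p = 0.880), with groups that overlapped.

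In the V1 sector, ATP6V1A, the subunit that hydrolyses ATP, had 41.6, 42.2 and 34.05 CPM in the OE CD51 ICD libraries, against 31.3, 26.8 and 27.03 CPM in the NC libraries (log2 fold change 0.47 ± 0.11 SE, adjusted p = 8.42e-04). ATP6V1D, a subunit of the rotating stalk, had 41.1, 51.9 and 38.8 CPM in the OE CD51 ICD libraries, against 34.7, 34.8 and 26.97 CPM in the NC libraries (log2 fold change 0.45 ± 0.12 SE, adjusted p = 0.00213). In both the OE CD51 ICD libraries lay above the NC libraries, and the GC-corrected changes were 0.23 and 0.31. ATP6V1D overlaps EIF2S1 and MPP5 on the opposite strand, and limma on log2(FPKM + 1) did not call it (adjusted p = 0.0865). ATP6V1B2, the other subunit of the ATP-hydrolysing head, was at 0.15 ± 0.08 SE, ATP6V1C1 at 0.04 ± 0.16 SE and ATP6V1H, a regulatory subunit, at -0.19 ± 0.10 SE on the log2 scale, and none passed. ATP6V1B2 was called higher with upper-quartile scaling (adjusted p = 0.0357), and ATP6V1H was called lower without TMM and with the GC trend removed (-0.24, adjusted p = 0.0149). ATP6V1E1, of the peripheral stalk, had 67.5, 68.5 and 64.3 CPM in the OE CD51 ICD libraries, against 63.8, 67.8 and 65.6 CPM in the NC libraries (log2 fold change 0.02 ± 0.09 SE, adjusted p = 0.838), with groups that overlapped.

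The summed FPKM of the 5 V0 genes was 141, 137 and 151 in the OE CD51 ICD libraries, against 177, 179.97 and 183 in the NC libraries. For the 6 V1 genes the sums were 74.1, 76.8 and 70.8 in OE CD51 ICD, against 66.5, 69.1 and 67.8 in NC. The ratio of the V0 sum to the V1 sum was therefore 1.94 ± 0.17 in OE CD51 ICD and 2.65 ± 0.05 in NC, and the groups did not overlap in it. These sums cover the listed genes alone and carry no GC correction, and the ratio for the whole pump was not computed. ATP6V1F, a V1 subunit gene of the wider list, was at 98.1 ± 11.2 FPKM in OE CD51 ICD and 141 ± 5.98 FPKM in NC. In each group that mean was above the V1 sum. The fall of ATP6V1F was larger than the rise of the V1 sum. The rise of that sum, and the size of the ratio's shift, therefore hold for the listed genes only. ATP6V1G1, also of the wider list, was at 33.6 ± 2.05 FPKM in OE CD51 ICD and 23.9 ± 2.21 FPKM in NC. ATP6V0E1 made up much of the V0 sum, at 78.2 ± 0.888 FPKM in OE CD51 ICD and 95.9 ± 3.29 FPKM in NC. Of the 2 accessory genes, ATP6AP2, the prorenin receptor, had 76.6, 90.97 and 74.2 CPM in the OE CD51 ICD libraries, against 56.2, 56.9 and 56.6 CPM in the NC libraries (log2 fold change 0.51 ± 0.09 SE, adjusted p = 3.31e-05), with a GC-corrected change of 0.30 (adjusted p = 0.00128). ATP6AP1, which encodes the Ac45 protein, had 199, 193 and 203 CPM in the OE CD51 ICD libraries, against 199, 199 and 220.1 CPM in the NC libraries (log2 fold change -0.05 ± 0.08 SE, adjusted p = 0.591), with groups that overlapped.

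**Figure D4:**
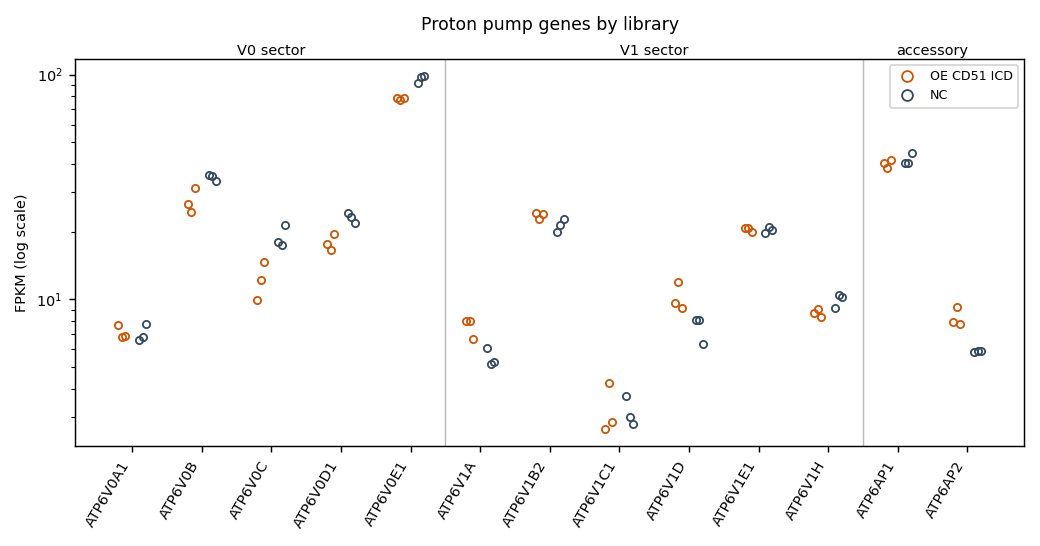
FPKM on a log scale of the 13 proton pump genes in each of the 3 OE CD51 ICD and 3 NC libraries, by sector. ATP6V0B, ATP6V0C, ATP6V0D1 and ATP6V0E1 lie lower in OE CD51 ICD, while ATP6V1A, ATP6V1D and ATP6AP2 lie higher.

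Hydrolase genes moved both ways. Of 16, 3 rose, 3 fell and 10 did not pass, against 25.2% called higher and 25.8% lower over all tested genes. The median log2 fold change of the 16 was 0.08. With the GC trend removed 6 were higher and 3 lower, and the median was 0.11. CTSK (ENSG00000143387, chromosome 1, 150796208 to 150808323), the collagen-degrading protease of osteoclasts, had 34.6, 38.3 and 40.5 CPM in the OE CD51 ICD libraries, against 18.1, 24.9 and 25.3 CPM in the NC libraries (log2 fold change 0.74 ± 0.12 SE, adjusted p = 9.92e-06). CTSZ, a carboxypeptidase, had 286, 275 and 274 CPM in the OE CD51 ICD libraries, against 195, 206 and 182 CPM in the NC libraries (log2 fold change 0.52 ± 0.08 SE, adjusted p = 2.22e-06). The groups were apart in both genes, and the GC-corrected changes were 0.64 and 0.74. TPP1, a peptidase whose loss causes a childhood neuronal ceroid lipofuscinosis, had 199.8, 205 and 200.4 CPM in the OE CD51 ICD libraries, against 155, 148 and 194 CPM in the NC libraries (log2 fold change 0.28 ± 0.09 SE, adjusted p = 0.00907). Its groups nearly touched, and it was not called in limma on log2(FPKM + 1) or without NC replicate 1 or 2 (adjusted p = 3.47e-04 to 0.130 over its alternatives).

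The 3 lower hydrolase genes were NEU1, CTSC and CTSA. NEU1, the lysosomal sialidase, had 88.5, 88.1 and 96.1 CPM in the OE CD51 ICD libraries, against 111, 119 and 111 CPM in the NC libraries (log2 fold change -0.32 ± 0.08 SE, adjusted p = 0.00167). CTSA encodes the protective protein that holds NEU1 and the beta-galactosidase GLB1 in a complex, and had 225, 221 and 249 CPM in the OE CD51 ICD libraries, against 260.1, 265 and 297 CPM in the NC libraries (log2 fold change -0.24 ± 0.08 SE, adjusted p = 0.0137). Its groups did not overlap, but its call was lost and its direction turned with the GC trend removed (0.01, adjusted p = 0.893). The call was also lost in limma on log2(FPKM + 1) and on leaving out NC replicate 3 or OE CD51 ICD replicate 1 or 2 (adjusted p = 0.00129 to 0.893 over its alternatives), and its locus overlaps PLTP and NEURL2. GLB1 averaged 153 ± 8.46 CPM in OE CD51 ICD and 146 ± 7.62 CPM in NC (0.08 ± 0.08 SE on the log2 scale) and did not pass. CTSC, a dipeptidyl peptidase that activates granule proteases, had 102, 108 and 118 CPM in the OE CD51 ICD libraries, against 123, 136 and 144 CPM in the NC libraries (log2 fold change -0.30 ± 0.09 SE, adjusted p = 0.00408). Its GC-corrected change was -0.55, and neither limma on log2(FPKM + 1) nor a fit without OE CD51 ICD replicate 1 called it (adjusted p = 0.0597 and 0.0702).

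The 3 members with the highest mean FPKM in NC, PSAP, CTSD and CD63, did not pass. PSAP, the precursor of the saposins that activate sphingolipid hydrolases, was the highest of the 49 per gene length, at 1088 ± 34.3 FPKM in OE CD51 ICD and 1144 ± 85.9 FPKM in NC. CTSD, the aspartic protease that is prominent in RPE lysosomes, was next at 274 ± 27.8 FPKM in OE CD51 ICD and 295 ± 33.98 FPKM in NC. In both the OE CD51 ICD and NC libraries overlapped, with log2 fold changes of -0.06 ± 0.08 SE for PSAP and -0.10 ± 0.09 SE for CTSD. CTSD turned to a higher call with the GC trend removed (0.19, adjusted p = 0.0301). CTSB, a cysteine protease, averaged 956 ± 74.8 CPM in OE CD51 ICD and 859 ± 82.7 CPM in NC (0.16 ± 0.08 SE, adjusted p = 0.121). It was called higher with the GC trend removed (0.25, adjusted p = 0.00280), with upper-quartile scaling and on leaving out NC replicate 3 or OE CD51 ICD replicate 2. GUSB, beta-glucuronidase, was at 0.17 ± 0.08 SE and called higher with the GC trend removed (0.30), with upper-quartile scaling and on leaving out OE CD51 ICD replicate 2. GLA, alpha-galactosidase, was at -0.27 ± 0.13 SE (adjusted p = 0.0760) and called lower with the GC trend removed (-0.29), without TMM and on leaving out OE CD51 ICD replicate 3. The cathepsin gene CTSL, the acid lipase gene LIPA and the ceramidase gene ASAH1 were at 0.08, 0.18 and 0.12 on the log2 scale and did not pass, though LIPA was called without NC replicate 2 (adjusted p = 0.0321). HEXA, the alpha subunit of hexosaminidase, had 57.9, 57.4 and 56.7 CPM in the OE CD51 ICD libraries, against 55.7, 55.8 and 68.1 CPM in the NC libraries (log2 fold change -0.06 ± 0.10 SE, adjusted p = 0.618), with groups that overlapped. ASAH1 was the lowest of the 49 per gene length, at 1.20 ± 0.158 FPKM in OE CD51 ICD and 1.11 ± 0.139 FPKM in NC.

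Among the 5 lysosomal membrane genes, SCARB2 and LAMP2 were higher and MCOLN1 was lower. The shares called over all tested genes were 25.2% higher and 25.8% lower. SCARB2, which encodes LIMP-2, the receptor that carries glucocerebrosidase to lysosomes, had 174, 196 and 158 CPM in the OE CD51 ICD libraries, against 128, 125 and 115 CPM in the NC libraries (log2 fold change 0.52 ± 0.09 SE, adjusted p = 9.06e-06). Its groups were apart, and the GC-corrected change was 0.30 (adjusted p = 3.23e-04). LAMP2, whose isoforms include the receptor of chaperone-mediated autophagy, had 141, 151 and 138 CPM in the OE CD51 ICD libraries, against 117, 129 and 115 CPM in the NC libraries (log2 fold change 0.25 ± 0.08 SE, adjusted p = 0.0111). The LAMP2 groups did not overlap, but its call was lost with the GC trend removed (0.00, adjusted p = 0.980), without TMM and without NC replicate 1 or 3 (adjusted p = 0.00306 to 0.980 over its alternatives). MCOLN1, the lysosomal calcium channel TRPML1, had 23.04, 22.96 and 26.3 CPM in the OE CD51 ICD libraries, against 31.5, 30.8 and 33.9 CPM in the NC libraries (log2 fold change -0.41 ± 0.11 SE, adjusted p = 0.00275). Each OE CD51 ICD library was below each NC library, and the call was lost with the GC trend removed (-0.14, adjusted p = 0.200). LAMP1, a major glycoprotein of the lysosomal membrane, had 419, 410.0 and 436 CPM in the OE CD51 ICD libraries, against 425, 424 and 457 CPM in the NC libraries (log2 fold change -0.05 ± 0.08 SE, adjusted p = 0.644), with groups that overlapped. CD63, a tetraspanin of late endosomes, averaged 629.9 ± 80.6 CPM in OE CD51 ICD and 718 ± 30.5 CPM in NC (log2 fold change -0.19 ± 0.08 SE, adjusted p = 0.0641). CD63 was called lower under 4 of 18 alternatives, among them the fits without TMM, in limma-voom and on leaving out OE CD51 ICD replicate 3 (adjusted p = 0.00144 to 0.616 over its alternatives).

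Of the 26 called members, 10 overlap another protein-coding gene in the annotation. The use of strand in counting is not given in the sources used here, and strand would not separate a same-strand pair such as that of ATP6V0C. How reads in stretches shared by such pairs were assigned is therefore not known, and their number was not examined.

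A wider set of 162 other genes of the same pathways was read from the same fit, and 149 of them were tested. Of these, 40 were higher and 31 were lower, or 26.8% and 20.8%, again close to the 25.2% and 25.8% of all tested genes. The shares of all tested genes are also the background for the counts of each wider list below. Without TMM the split was 31 higher and 42 lower, and in limma on log2(FPKM + 1) 24 were higher and 21 lower. In edgeR 6 of them rose and 0 fell by at least 2-fold, against 6.89% and 5.83% of all tested genes. The lowest log2 fold change of these genes was -0.91, so no p threshold could change the count of 0. It was also 0 with DESeq2 and with limma-voom.

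Among other hydrolase genes, 12 were higher and 6 lower of 34 tested. CTSH, an aminopeptidase, had 612, 610.0 and 588 CPM in the OE CD51 ICD libraries, against 249, 279 and 266 CPM in the NC libraries (log2 fold change 1.19 ± 0.08 SE, adjusted p = 1.22e-13). LGMN, the asparaginyl endopeptidase that processes cathepsins, had 153, 142 and 138 CPM in the OE CD51 ICD libraries, against 60.5, 71.6 and 69.4 CPM in the NC libraries (log2 fold change 1.10 ± 0.09 SE, adjusted p = 9.01e-12). Both were more than 2-fold higher, with no overlap. PLA2G15, a lysosomal phospholipase, had 50.2, 48.7 and 53.5 CPM in the OE CD51 ICD libraries, against 83.2, 74.97 and 76.6 CPM in the NC libraries (log2 fold change -0.62 ± 0.09 SE, adjusted p = 1.09e-06), with a GC-corrected change of -0.40. GAA, acid alpha-glucosidase, averaged 105 ± 5.001 CPM in OE CD51 ICD and 136 ± 8.73 CPM in NC (log2 fold change -0.37 ± 0.08 SE, adjusted p = 4.50e-04). The GAA call was lost with the GC trend removed (-0.07, adjusted p = 0.400), where the counts of the list were 10 higher and 1 lower.

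Among other membrane and sorting genes, 7 were higher and 5 lower of 25 tested, and with the GC trend removed 5 were higher and 6 lower. SLC17A5, the sialic acid exporter, had 32.1, 39.8 and 32.4 CPM in the OE CD51 ICD libraries, against 14.4, 15.7 and 16.3 CPM in the NC libraries (log2 fold change 1.17 ± 0.12 SE, adjusted p = 2.89e-09). SORT1, the sorting receptor sortilin, had 454, 453 and 368 CPM in the OE CD51 ICD libraries, against 243, 247 and 229 CPM in the NC libraries (log2 fold change 0.83 ± 0.08 SE, adjusted p = 1.97e-09). In both genes each OE CD51 ICD library was above each NC library. LITAF, a protein of late endosome membranes, averaged 112 ± 1.20 CPM in OE CD51 ICD and 166 ± 12.4 CPM in NC (log2 fold change -0.56 ± 0.08 SE, adjusted p = 1.15e-06). CLCN7, the chloride and proton exchanger of lysosomes, averaged 105 ± 11.4 CPM in OE CD51 ICD and 144 ± 2.53 CPM in NC (log2 fold change -0.46 ± 0.09 SE, adjusted p = 4.46e-05), with a GC-corrected change of -0.16.

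Among other pump genes, 3 were higher and 2 lower of 13 tested. The higher genes were WDR7, DMXL1 and the V1 subunit gene ATP6V1G1 (0.50, GC-corrected 0.28). WDR7 and DMXL1 encode large proteins that assist assembly of the pump. WDR7 averaged 15.7 ± 0.461 CPM in OE CD51 ICD and 9.95 ± 1.32 CPM in NC (log2 fold change 0.66 ± 0.15 SE, adjusted p = 4.94e-04) and DMXL1 averaged 11.98 ± 1.82 CPM in OE CD51 ICD and 7.60 ± 2.11 CPM in NC (log2 fold change 0.65 ± 0.18 SE, adjusted p = 0.00381), and both calls were lost in limma on log2(FPKM + 1) (adjusted p = 0.0656 and 0.159). GC correction lowered the DMXL1 change to 0.40. ATP6V0E2, a paralog of ATP6V0E1, had 43.3, 40.6 and 46.9 CPM in the OE CD51 ICD libraries, against 74.00, 70.6 and 64.4 CPM in the NC libraries (log2 fold change -0.68 ± 0.10 SE, adjusted p = 6.74e-07). ATP6V1F, a stalk subunit, had 76.2, 71.6 and 87.2 CPM in the OE CD51 ICD libraries, against 108, 112 and 117 CPM in the NC libraries (log2 fold change -0.52 ± 0.09 SE, adjusted p = 1.40e-05). In both the groups were apart. Over members and the wider list together, 5 of 9 tested V0 genes were lower and none higher, while 3 of 11 V1 genes were higher and 1 was lower. With the GC trend removed these counts were 3 lower V0 genes, and 3 higher and 3 lower V1 genes.

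Among other autophagy genes, 15 were higher and 7 lower of 47 tested. VMP1, a lipid scramblase needed for autophagosome formation, had 84.9, 86.3 and 76.97 CPM in the OE CD51 ICD libraries, against 31.01, 38.9 and 35.8 CPM in the NC libraries (log2 fold change 1.23 ± 0.10 SE, adjusted p = 1.04e-11). BNIP3L, a receptor for the autophagy of mitochondria, had 95.3, 98.5 and 86.2 CPM in the OE CD51 ICD libraries, against 42.4, 39.1 and 40.01 CPM in the NC libraries (log2 fold change 1.20 ± 0.09 SE, adjusted p = 3.46e-12). Both were more than 2-fold higher, though the GC-corrected changes were 0.98 and 0.95. VPS18 and VPS16 encode core subunits of the HOPS complex, which tethers autophagosomes and late endosomes to lysosomes. VPS18 had 37.2, 31.9 and 41.2 CPM in the OE CD51 ICD libraries, against 74.1, 69.3 and 63.3 CPM in the NC libraries (log2 fold change -0.91 ± 0.10 SE, adjusted p = 1.35e-08) and VPS16 averaged 28.8 ± 1.19 CPM in OE CD51 ICD and 40.9 ± 1.41 CPM in NC (log2 fold change -0.51 ± 0.10 SE, adjusted p = 1.35e-04). GC correction brought VPS16 to -0.30 (adjusted p = 0.00923).

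Genes of the mTORC1 pathway, which holds TFE factors in the cytoplasm when nutrients are plentiful, were lower in 11 and higher in 3 of 30 tested members of that list, MITF among the lower. Over all tested genes, 25.8% were called lower and 25.2% higher. The median GC content was 52.2% in this list and 48.6% over all tested genes. With the GC trend removed 10 genes of the list were lower and 5 higher. MLST8, a subunit of both mTOR complexes, had 66.4, 61.5 and 76.4 CPM in the OE CD51 ICD libraries, against 117, 109 and 113 CPM in the NC libraries (log2 fold change -0.73 ± 0.09 SE, adjusted p = 6.52e-08), with a GC-corrected change of -0.43. RPTOR, the subunit that defines mTORC1, was at -0.49, its activator RHEB at -0.35 and the inhibitory subunit AKT1S1 at -0.39 on the log2 scale. The GC-corrected changes were -0.25 for RPTOR, -0.40 for RHEB and -0.15 for AKT1S1. The negative regulators TSC2, NPRL2 and NPRL3 were also called lower, at -0.54, -0.50 and -0.53 (GC-corrected -0.28, -0.33 and -0.27), so activators and inhibitors were both among the lower genes. TSC1, the partner of TSC2, was called higher at 0.36 ± 0.12 SE (adjusted p = 0.0114). The AKT1S1 call was lost with the GC trend removed (adjusted p = 0.0589), and these 7 genes were chosen after their values were seen. MTOR itself was at 0.02 ± 0.08 SE and did not pass. FNIP2, which encodes a partner of folliculin, had 16.98, 18.2 and 14.9 CPM in the OE CD51 ICD libraries, against 8.45, 6.58 and 8.58 CPM in the NC libraries (log2 fold change 1.08 ± 0.16 SE, adjusted p = 1.13e-06). PRKAA1, a catalytic subunit of AMP-activated kinase, averaged 19.9 ± 4.66 CPM in OE CD51 ICD and 15.2 ± 0.350 CPM in NC (log2 fold change 0.39 ± 0.15 SE, adjusted p = 0.0304), with groups that overlapped and a call lost under 10 of 18 alternatives, among them DESeq2, the GC trend removed (0.14), and the omission of any NC library or of OE CD51 ICD replicate 1 or 2 (adjusted p = 0.00113 to 0.394).

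**Figure D5:**
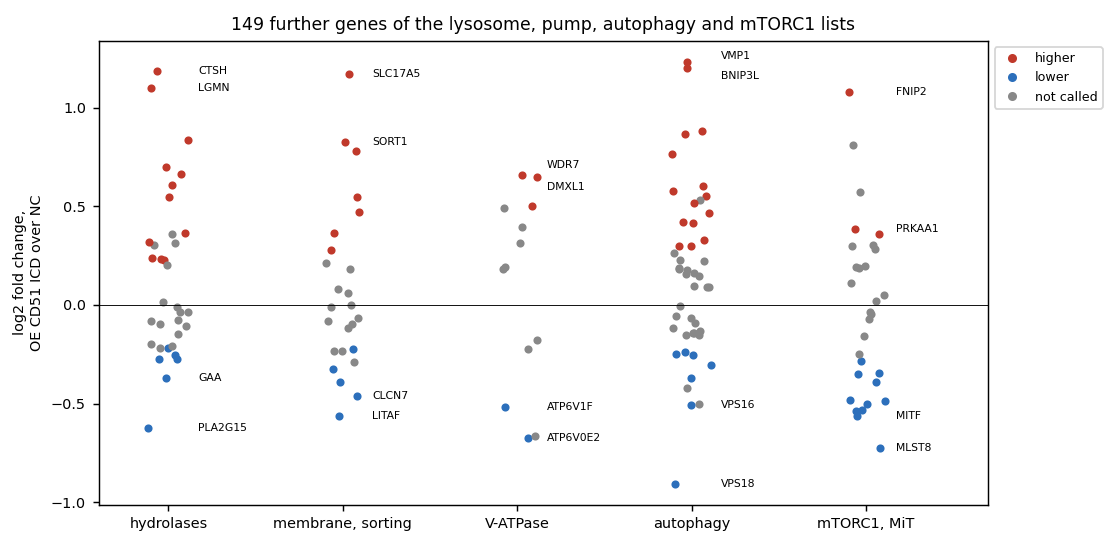
Log2 fold change of OE CD51 ICD over NC for the 149 tested genes of the 5 wider lists, 1 point a gene with random sideways offsets, coloured by the call of edgeR's quasi-likelihood test. The labelled genes are those picked by the naming rule, from VMP1 at 1.23 to VPS18 at -0.91.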

How the data were processed

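Whole-number counts per gene and FPKM per gene were deposited by the authors in separate tables, 1 column for each of the 6 libraries. Per the labels' protocols, total RNA was extracted with TRNzol or a Quick-RNA kit and libraries were made with a SMARTER mRNA kit. The build is hg38 per the submitters' processing notes, and all 58735 gene coordinates matched GENCODE 29. The aligner, the counting program and its strand setting are treated as not given in the sources used here. Each deposited FPKM equalled its count over gene length and over a library constant, which was 0.961 to 1.05 times the total count.

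Tests on counts used edgeR 4.0.16 and R 4.3.3 (filterByExpr, TMM, glmQLFit, glmQLFTest, two-sided, Benjamini-Hochberg over 13787 genes), and the script was first tested on simulated counts. Standard errors (SE) are the absolute log2 fold change over the square root of F. Errors on levels are SD, n = 3 each. The biological coefficient of variation was 9.44%. Alternatives used DESeq2 1.42.0, limma 3.58.1, other scalings and filters, log2(FPKM + 1), log2(FPKM + 0.1), omission of each replicate, the replicate number as a block and removal of GC trends by lowess on the GC content of each gene's longest GENCODE 29 transcript, had for 99.96% of tested genes. Promoter windows are RefSeq's. Summaries used pandas 2.3.3, NumPy 2.4.6 and SciPy 1.17.1 in Python 3.11.15, and figures matplotlib 3.10.9.

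The members, the gene lists and the alternatives were chosen with earlier results of these data known. The naming rule took, in each role, up to 3 called members in each direction and the member with the smallest change, and from each wider list up to 2 called genes in each direction with a mean of at least 5 CPM. Other members are given to account for all 49.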

Additional observations from a re-analysis of the deposited data

How the results depend on the processing

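Under 18 alternatives, the number of members called ran from 11 to 18 higher and from 8 to 14 lower, against 15 and 11. RLE scaling, a minimum of 10 counts in 3 libraries and protein-coding genes alone gave the same 26 called members. The count of members higher by at least 2-fold was 0, against 1, without TMM (library size alone) and in limma on log2(FPKM + 1), and 0 to 1 when a replicate was left out. The count of wider genes called higher was 24, against 40, in limma on log2(FPKM + 1). Of 1260 gene values recomputed over 70 genes, 1185 stayed on their side of the threshold with no called value changing sign, 55 lost the call, 18 gained one and 2 turned direction, both with the GC trend removed: CTSA at 0.0116 and CTSD at 0.19. The cause of these changes was not tested. With the replicate block, 14 members were higher and 12 lower, ATG12 losing and CD63 gaining a call. The deviations of same-numbered libraries correlated at -0.05, 0.0013 and 0.051, so the numbers were not taken as pairs. At 13616694 to 16934668 counts per library, the SE of the log2 fold change among members ran up to 0.18 (ATG5), which limits what can be called among the least abundant.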
